A study of Mus musculus with 34 samples.

Results

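The comparison described here sets H3K9me3 in 3 embryonic stem cell lines of the mouse strain C57BL/6J (B6) against H3K9me3 in 3 lines of the strain DBA/2J (D2). Its members are 6 of the 34 libraries of the series, chosen by the strain and the line that their labels give, and all 248336 regions of the count table in which they were deposited. The series profiled H3K9me3 and H3K27ac by chromatin immunoprecipitation and sequencing in 12 groups, among them lines with a segment of chromosome 13 exchanged between the strains, which are not compared here. The B6 lines were 4-1, 4-4 and 5-1 (replicates 1 to 3) and the D2 lines 2-9, 5-5 and 203 (replicates 1 to 3), each labelled a biological replicate and each of an unmodified strain background. All were grown in serum with LIF, the MEK inhibitor PD0325901 and the GSK3 inhibitor CHIR99021, fixed, fragmented with micrococcal nuclease and precipitated with an H3K9me3 antibody from Active Motif. Another 6 libraries, of H3K27ac from the same 6 lines, were used as a further readout. So were 5 H3K9me3 libraries that repeat B6 line 5-1 (3 libraries) and D2 line 5-5 (2 libraries), both among these 6 lines.

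H3K9me3 is a trimethyl mark on lysine 9 of histone H3 that recruits HP1 proteins and marks silent chromatin. In embryonic stem cells SETDB1 places much of it, brought to retrotransposons and to imprinted control regions by KRAB zinc finger proteins and their cofactor TRIM28, while SUV39H enzymes mark the satellite repeats around centromeres. KRAB zinc finger genes lie in clusters that differ between mouse strains and are themselves often covered by the mark.

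Sequences of the regions with the smallest adjusted p in each direction, outside exons, show the kind of DNA involved. They are the central 150 bases of each region on the plus strand of GRCm38, with CG dinucleotides in capitals. The first 3 come from regions with more H3K9me3 in D2 and the others from regions with more in B6.
chr9:123932936-123933085: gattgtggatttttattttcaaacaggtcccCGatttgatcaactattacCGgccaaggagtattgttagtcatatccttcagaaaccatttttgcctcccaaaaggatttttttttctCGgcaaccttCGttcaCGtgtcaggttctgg
chrY:90730105-90730254: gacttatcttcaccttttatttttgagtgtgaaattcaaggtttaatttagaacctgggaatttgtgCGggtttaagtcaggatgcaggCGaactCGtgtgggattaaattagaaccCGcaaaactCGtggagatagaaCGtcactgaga
chr11:21256636-21256785: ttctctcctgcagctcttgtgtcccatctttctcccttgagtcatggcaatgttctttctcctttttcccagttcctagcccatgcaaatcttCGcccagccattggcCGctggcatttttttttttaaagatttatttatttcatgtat
chr10:3112847-3112996: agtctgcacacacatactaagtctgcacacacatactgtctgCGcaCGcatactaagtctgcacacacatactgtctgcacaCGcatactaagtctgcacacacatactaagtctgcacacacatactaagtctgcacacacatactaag
chr4:112160385-112160534: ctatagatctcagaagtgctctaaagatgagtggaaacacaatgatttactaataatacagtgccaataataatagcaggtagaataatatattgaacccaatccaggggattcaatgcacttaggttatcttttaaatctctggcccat
chr10:69036379-69036528: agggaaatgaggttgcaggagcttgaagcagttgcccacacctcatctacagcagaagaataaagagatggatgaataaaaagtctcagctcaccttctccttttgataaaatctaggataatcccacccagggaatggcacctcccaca
These stretches held 5, 6 and 2 CG dinucleotides in the D2-higher regions and 3, 0 and 0 in the B6-higher regions. The share of bases that the reference masks as repeats was 31.3%, 2% and 57.3% in the former and 100%, 78.7% and 42.7% in the latter. The stretch chr10:3112847-3112996 is a short unit repeated in tandem.

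The libraries were shallow and their depth differed by strain. B6 libraries held 1487862 to 1687002 counts in all regions and D2 libraries 1981703 to 2559262. Of all regions, 44797 (18%) carried enough counts to be tested, with a median of 16.2 counts per library, and they held 57.1% to 68.6% of a library's counts. Pearson correlations of log2 levels between lines of a strain were 0.844 to 0.886, and no pair of libraries differed by as little as sampling noise. One D2 line, 203, stood apart on chromosome 11: its median region there lay 0.143 log2 units above the mean of the lines, where the other 5 lines lay between -0.018 and 0.032. The H3K27ac library of that line gave 0.119 on the same chromosome, where its 5 counterparts lay between -0.046 and 0.006. On chromosome Y, B6 line 4-4 lay at -0.322, against -0.046 and -0.116 in the other B6 lines and 0.161 to 0.238 in D2 lines. The H3K27ac libraries of the B6 lines lay between -0.146 and -0.125 there. H3K27ac at gene starts was summed over stem cell markers such as Pou5f1, Nanog and Sox2 (1 of 10 genes lacking a region). It came to 1516 to 1707 CPM (counts scaled to the size of each library) in the 6 lines. The fibroblast markers summed to 6.16 to 7.55 CPM, with 5 of 9 genes lacking a region, and the trophoblast markers to 51.0 to 57.8 CPM, with 1 of 4 lacking one. Primitive endoderm markers (3 of 6 lacking a region) came to 14.9 to 15.4 CPM in B6 and 11.8 to 12.6 CPM in D2, a gap carried by Sox7 (5.89 to 6.73 against 3.57 to 3.85 CPM), since Gata6 and Pdgfra overlapped between the strains. Early differentiation markers (1 of 6 lacking one) came to 34.5 to 40.4 CPM in B6 and 44.6 to 46.8 CPM in D2, with Sox1, Mixl1 and Fgf5 apart between the strains and T and Eomes overlapping. For the last 2 lists the sums of the strains did not overlap, and the part of other cells in the H3K9me3 differences was not tested.

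H3K9me3 differed between the strains at 15525 of the 44797 tested regions, 34.7% of them, and the differences were split nearly evenly. D2 lines were higher at 7728 regions (17.3% of those tested) and B6 lines at 7797 (17.4%), by edgeR's quasi-likelihood test with Benjamini-Hochberg adjustment at an adjusted p under 0.05. With library totals in place of TMM scaling the median of all tested regions moved by 0.16 log2 units and the share of calls that were higher in D2 rose from 49.8% to 61.5%, so directions below are given relative to that overall split. The median called difference was 1.37 log2 units where D2 was higher and -1.23 where B6 was higher. A difference of at least 4-fold (2 log2 units, 7.65% of tested regions) was called at 1858 regions in favour of D2 and at 1568 in favour of B6, and one of at least 32-fold (5 log2 units) at 22 and 23. The 3 lines of each strain did not overlap at 14758 called regions, 95.1% of them, against 44.9% of all tested regions. In 650 called regions each B6 library held 3 counts or fewer, and in 184 each D2 library did. These numbers are not on 1 scale, since 3 counts are 3.08 to 3.26 CPM in the B6 libraries and 1.87 to 2.47 CPM in the deeper D2 ones.

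The region with the smallest adjusted p in favour of D2 lay at chr9:123931516-123934505, outside genes and 27.6 kb from Ccr1, a chemokine receptor gene. Its levels were 10.6, 13.1 and 21.5 CPM in B6 lines and 773, 550 and 733 CPM in D2 lines, a difference of 5.49 ± 0.21 log2 units (SE, edgeR adjusted p = 9.29e-23). No line of either strain came near the other strain. A further D2-higher region, chr11:21256212-21257208, lay in an intron of Vps54, which encodes a subunit of a vesicle tethering complex. It held 4.23, 1.09 and 5.13 CPM in B6 and 109, 115 and 129 CPM in D2, a difference of 5.02 ± 0.29 log2 units. An intron of Rrn3, the gene of an RNA polymerase I initiation factor, held 5.28, 4.35 and 10.3 CPM in B6 and 114, 134 and 143 CPM in D2 (chr16:13785544-13787114). The intergenic region chr7:15848989-15851080, 9.31 kb from the homeobox gene Obox6, held 12.7, 10.9 and 16.4 CPM in B6 and 146, 142 and 141 CPM in D2. In these regions the D2 lines were high and the B6 lines low, and the D2 lines lay furthest apart near Ccr1 (550 to 773 CPM). H3K27ac was lower in D2 in the regions at Vps54 (-0.33 log2 units), Rrn3 (-0.36) and near Obox6 (-2.36, edgeR adjusted p = 6.01e-29), and the region near Ccr1 had no H3K27ac value. The widest of the D2-higher regions, chrY:90725134-90735224 (10091 bp), was marked in both strains, with 326, 250 and 339 CPM in B6 and 2206, 1790 and 1806 CPM in D2. Its difference was 2.66 ± 0.14 log2 units, and H3K27ac there was higher in D2, by 4.04 log2 units (edgeR adjusted p = 1.52e-32).

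Regions at the other end of the ranking held the mark in B6 and little of it in D2. The tandem repeat at chr10:3112743-3113100 held 192, 175 and 164 CPM in B6 lines and 4.11, 6.86 and 4.51 CPM in D2 lines, a difference of -5.04 ± 0.23 log2 units (edgeR adjusted p = 3.95e-20). Skint4, one of a cluster of genes related to the selection of skin T cells, carried in an intron (chr4:112159399-112161519) 167, 113 and 128 CPM in B6 and 1.65, 4.37 and 2.25 CPM in D2. The intergenic region chr10:69035491-69037415 held 106, 74 and 79 CPM in B6. Every D2 library had 3 counts or fewer there, so the B6 level was at least 39.2-fold higher than a floor of 3 counts per library. At chr12:20913603-20915721, which overlaps the non-coding transcripts 3110053B16Rik and Zfp125, the levels were 105, 91.4 and 104 CPM in B6 and 4.11, 4.37 and 3.01 CPM in D2. Both remaining regions named by the same ranking lie on chromosome 4, at Gm12892 (log2 difference -5.77 ± 0.32) and at Gm21411 (-4.55 ± 0.26). H3K27ac had a value at 3 of these 6 regions and was lower in D2 at each. The differences were -4.99 log2 units at Skint4, -3.59 at Zfp125 and -1.60 at chr10:69035491-69037415. At Skint4 H3K27ac was 2.74, 3.08 and 2.34 CPM in B6 lines and 0.064, 0 and 0.173 CPM in D2 lines. There 3 counts are 0.165 to 0.193 CPM in the D2 libraries, so the size of that difference rests on the floor. At these 6 regions, as at those higher in D2, the levels of the strains did not overlap.

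By chromosome, the share of tested regions that differed was close to the 34.7% of all tested regions on most. It was highest on chromosomes Y and 13, followed by chromosome 4, which lay close to the next ones. Chromosome 13 had 40.2% called, with 618 regions higher in D2 and 424 higher in B6, so that 59.3% of its calls favoured D2 (95% Wilson interval 56.3 to 62.3%, which covers counting error only and takes regions as independent). Chromosome 4 had 38.3% called and the opposite split, 413 regions higher in D2 and 678 higher in B6 (37.9% in favour of D2, 35.0 to 40.8%). Chromosome Y, with 77 tested regions, had 50.6% called, 25 higher in D2 and 14 higher in B6. That is 64.1% in favour of D2 (48.4 to 77.3%), an interval that covers the 49.8% of all calls. B6 line 4-4 took 0.267% of its counts there, against 0.407% and 0.420% in the other B6 lines. The other chromosomes had between 31.0% (chromosome 9) and 37.7% (chromosome 14) called, and between 44.9% and 57.6% of their calls favoured D2, the highest on chromosome 8 with 442 against 325. Chromosome 13 led further at large differences, where 227 regions were at least 4-fold higher in D2 and 73 in B6. On chromosome 11, where D2 line 203 stood apart, 52.0% of calls favoured D2 with that line and 49.6% without it.

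**Figure D1:**
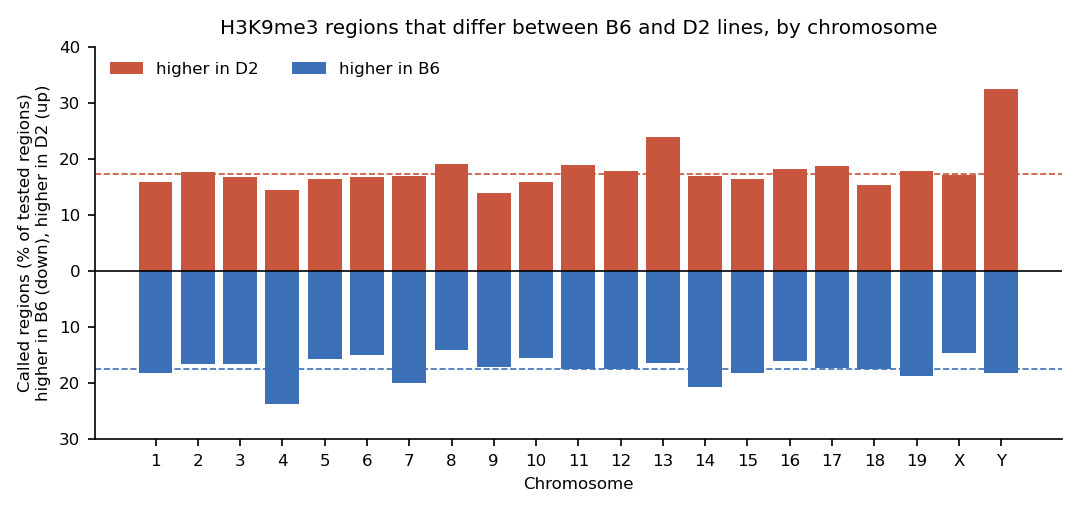
Share of tested H3K9me3 regions on each chromosome that were called higher in D2 (upward bars) or higher in B6 (downward bars), in percent, with dashed lines at the values over all tested regions (17.3% and 17.4%). Chromosome Y and chromosome 13 rise furthest above the upper line and chromosome 4 falls furthest below the lower one.

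Windows of 1 Mb placed these excesses in gene clusters. On chromosome 13, 141 of 167 tested regions between 66 and 67 Mb and 124 of 137 between 65 and 66 Mb were higher in D2, with median differences of 1.95 and 2.38 log2 units. On chromosome 4, 151 of 184 tested regions starting from 147 Mb were higher in B6, among zinc finger genes such as Rex2, Zfp985 and Zfp979, and 71 of 98 between 146 and 147 Mb. The next windows in favour of D2 were chromosome 8 from 20 to 21 Mb, with 43 of 141 regions around Defb33 (a beta-defensin gene), and chromosome 1 from 171 to 172 Mb, with 32 of 74 around the Fc receptor genes Fcgr3 and Fcgr4. Chromosome 17 followed, with 28 of 59 regions from 6 to 7 Mb. In favour of B6, the start of chromosome 9 (3 to 4 Mb, 30 of 67) and chromosome 17 from 13 to 14 Mb (24 of 52, around Tcp10b and Tcp10c) completed the first 5 together with chromosome 4 from 145 to 146 Mb (39 of 98). The longest unbroken run of tested regions called in 1 direction held 69 regions over 294 kb (chr4:147108494-147402984, median -1.70), and the longest in favour of D2 held 51 over 203 kb (chr13:65557310-65760667, median 2.52). A run of 21 regions covered 724 kb of the Skint cluster (chr4:111945560-112669988) with a median of -2.87. Calls were also scattered over the genome: 2476 of 2591 windows held at least 1 call and 1833 held calls in both directions. In all, 3867 B6-higher and 4000 D2-higher regions had no neighbouring tested region called in the same direction.

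Shares of a library's counts gave a view that does not rest on calls. Chromosome 9 took 13.6, 12.9 and 12.2% of the counts in B6 lines and 9.49, 9.26 and 10.3% in D2 lines. The mean share of the chromosome differed by -3.24 percentage points, and that of the 29 regions nearest its start by -3.47, more than the whole, so the rest of the chromosome took a slightly larger share in D2. That stretch, chosen after its values were seen, held 9.34, 8.43 and 7.81% of counts in B6 and 4.85, 4.61 and 5.72% in D2. Chromosome 13 took 4.96, 4.91 and 4.97% in B6 and 5.62, 5.56 and 5.43% in D2. Chromosome 4 took 6.45, 6.25 and 6.35% in B6 and 5.92, 5.88 and 5.87% in D2. In each of these the strains did not overlap, as was so for 71.4% of chromosomes, and the two-sided exact permutation test gave p = 0.1, the smallest that 3 against 3 lines allow (0.195 after adjustment over 43 shares).

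Gene context went with the direction of the difference more than with how often there was one. Coding exons had 37.0% of tested regions called, untranslated regions 37.1%, non-coding exons 39.1%, introns 36.2% and intergenic regions 33.1%, around the overall 34.7%. Of the calls over coding exons, 952 favoured D2 and 522 favoured B6 (64.6% in favour of D2, Wilson interval 62.1 to 67.0%). Among coding-exon regions with a mean of 50 or more counts the split was the reverse, 47 against 81. Summed over all coding-exon regions, the share of counts was also lower in D2, with 16.3, 16.2 and 15.9% in B6 lines and 14.6, 14.4 and 14.2% in D2 lines (two-sided exact permutation test, p = 0.1). Without the start of chromosome 9 it was 8.96, 9.54 and 9.75% in B6 and 10.8, 10.7 and 9.63% in D2, and the strains overlapped (p = 0.2 by the same exact test). The share was 60.7% over untranslated regions, 57.2% over non-coding exons, 48.2% in introns (2075 against 2229) and 46.6% between genes (3917 against 4488). Intergenic calls favoured B6 more with distance from protein-coding genes: 51.4% favoured D2 within 10 kb, 47.8% at 10 to 100 kb and 42.6% beyond 100 kb. With library totals in place of TMM these shares rose with the overall one, to 72.4% over coding exons, 59.2% in introns and 59.6% between genes.

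Within 1 kb of such a start, 2857 regions were tested and 952 called (33.3%, below the overall 34.7%), 642 higher in D2 and 310 higher in B6. That is 67.4% in favour of D2 (Wilson interval 64.4 to 70.3%) against 48.6% elsewhere. The share was 63.8%, 73.7% and 74.0% among regions with a mean of under 15, 15 to 25 and 25 to 50 counts, and 39.4% among the 108 with 50 or more. Elsewhere the same bands gave 51.5%, 52.5%, 44.2% and 34.0%. CpG content moved with it: near starts, 71.7% of calls favoured D2 where the ratio of observed to expected CpG was at least 0.6, 66.7% between 0.2 and 0.6, and 47.4% under 0.2. Away from starts the corresponding shares were 65%, 57.0% and 35.9%. All start regions together took a lower share of counts in D2, with 11.1, 10.9 and 10.8% in B6 lines and 9.57, 9.55 and 9.30% in D2 lines (two-sided exact permutation test, p = 0.1). Start regions other than those at the start of chromosome 9 took 6.09, 6.45 and 6.60% of counts in B6 lines and 6.95, 7.08 and 6.23% in D2 lines, so by this measure the strains overlapped (two-sided exact permutation test, p = 0.3).

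**Figure D2:**
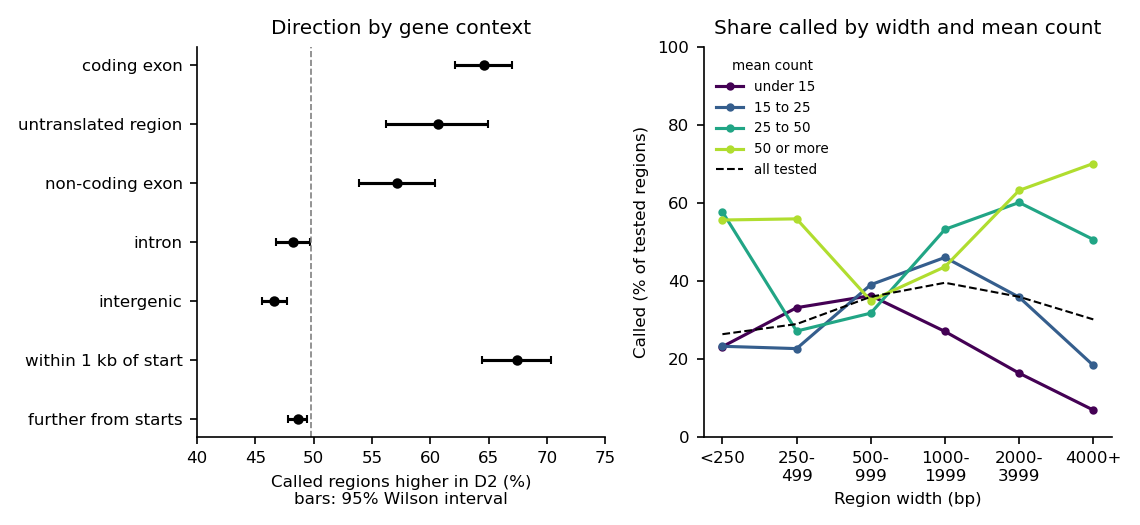
Left, percentage of called H3K9me3 regions that were higher in D2 for each gene context and for regions within 1 kb of a protein-coding gene start or further away, with 95% Wilson intervals and a dashed line at the overall 49.8%. Right, percentage of tested regions called against region width in bp, for bands of mean count per library and for all tested regions (dashed). Exons and gene starts lie to the right of the dashed line, and wide regions are called often where counts are high and seldom where they are low.

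At gene starts, the D2-higher regions with the smallest adjusted p lay at Ube2s, Gm10203, Gja1 and Fam91a1. Ube2s encodes a ubiquitin-conjugating enzyme that works with the anaphase-promoting complex. Its start (chr7:4811015-4813933) held 2.11, 7.61 and 5.13 CPM in B6 and 101, 101 and 98.5 CPM in D2, a difference of 4.32 ± 0.27 log2 units (edgeR adjusted p = 6.99e-16). Gja1, the gene of the gap junction protein connexin 43, held 9.51, 7.61 and 11.3 CPM in B6 and 107, 109 and 114 CPM in D2 at its start (chr10:56375547-56379699). H3K27ac was lower in D2 at Ube2s (-0.65 log2 units), Fam91a1 (-0.91) and Gm10203 (-1.20), with edgeR adjusted p of 5.98e-11, 4.01e-08 and 3.48e-20. At Gja1 its difference was 0.02 log2 units (adjusted p = 0.787). The B6-higher starts with the smallest adjusted p were a region shared by Coil and Elobl, and those of Zfp961, Plekhm3 and Zfp979. Coil encodes coilin, a structural protein of Cajal bodies, and the region beside it (chr11:88967394-88969702) held 173, 145 and 163 CPM in B6 and 17.3, 13.1 and 10.5 CPM in D2. Zfp961, a zinc finger gene, held 171, 108 and 149 CPM in B6 and 14.8, 12.5 and 14.3 CPM in D2 over its start and coding sequence (chr8:71950293-71955528). H3K27ac at the Coil and Elobl region was lower in D2 as well (-0.999 log2 units, edgeR adjusted p = 1.95e-20), while at Plekhm3 it was higher in D2 (0.81, adjusted p = 1.73e-15). At Zfp961 its difference was -0.015 (adjusted p = 0.871), and the Zfp979 region had no H3K27ac value. In all 8 regions the lines of the strains were apart.

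Over coding exons, Cenpv and Ctc1 joined Ube2s in favour of D2. Cenpv, a centromere protein gene, held 5.28, 5.44 and 5.13 CPM in B6 and 110, 119 and 156 CPM in D2 (chr11:62523100-62525532). Ctc1, which encodes a subunit of a complex that protects telomeres, held 6.34, 6.53 and 5.13 CPM in B6 and 100, 104 and 147 CPM in D2 (chr11:69026056-69027475). Both lie on chromosome 11, where D2 line 203 gave the highest level of the 3 D2 lines at each. In favour of B6 stood Ttbk2, Zfp961 and Mpp6. Ttbk2, a kinase gene needed to form cilia, held 90.8, 87.0 and 76.9 CPM in B6 and 3.29, 4.37 and 2.25 CPM in D2 (chr2:120824638-120826592). Mpp6, a membrane scaffold gene, held 57.0, 87.0 and 58.5 CPM in B6 and 2.47, 4.37 and 0.752 CPM in D2 (chr6:50196338-50197829). At these last regions H3K27ac went the other way, higher in D2 by 2.72 log2 units at Ttbk2 and by 2.58 at Mpp6 (edgeR adjusted p of 6.03e-26 and 9.24e-16).

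How often a difference was called varied with region width and with the counts a region held. The share called rose from 26.3% under 250 bp to 28.9% at 250 to 500 bp, 35.9% at 500 to 1000 bp and 39.5% at 1000 to 2000 bp, then fell to 35.9% at 2000 to 4000 bp and 30.1% at 4000 bp or wider. Bands of mean count called 30.4% under 15 counts, 34.7% at 15 to 25, 40.0% at 25 to 50 and 48.3% at 50 or more. Within the last band, regions of 4000 bp or wider were called most often (70.1% of 157) and those of 2000 to 4000 bp next (63.2% of 627), while in the band under 15 counts the widest were called in 6.83% of 293. The direction varied with width as well, from 46.5% in favour of D2 at 4000 bp or wider to 58.7% under 250 bp. With count it went from 52.2% and 54.0% in the lower bands to 45.8% and 34.3% in the upper ones. The 3 widest called regions were the one on chromosome Y, chr6:65017278-65026757, which lies 15.8 kb from Smarcad1, and chr2:154891082-154900554, which covers the start of Eif2s2. Near Smarcad1 the levels were 339, 216 and 265 CPM in B6 and 104, 145 and 119 CPM in D2 (-1.15 ± 0.16 log2 units). At Eif2s2, a translation initiation factor gene, they were 124, 100.1 and 129 CPM in B6 and 180, 255 and 212 CPM in D2 (0.88 ± 0.15 log2 units).

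Base composition differed between the directions. D2-higher regions had a median GC content of 49.4% and a median CpG ratio of 0.300, B6-higher regions 45% and 0.201, and tested regions without a call 47.8% and 0.262. Of the calls in regions with a CpG ratio under 0.2, 36% favoured D2, against 57.5% between 0.2 and 0.6 and 67.9% at 0.6 or more. The median share of masked repeat bases was 25.3% in D2-higher, 39.7% in B6-higher and 43.2% in uncalled regions. Where under 10% of bases were masked 63.7% of calls favoured D2, and at 10 to 50% masked 49.1% and at 50 to 90% masked 39.2% did. There was no steady trend, since 54.3% favoured D2 where 90% or more of bases were masked. The motif TGCCGC, the core of the sequence that the imprinting factor ZFP57 binds when methylated, was searched on both strands and stood in 18.4% of D2-higher, 13.8% of B6-higher and 15.9% of all tested regions.

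Imprinted genes leaned to B6. Imprinted genes are expressed from the maternal or the paternal copy, and the methylated copy of their control regions carries H3K9me3. Of 39 such genes with a tested region on them or within 2 kb, 25 had calls in favour of B6 alone, 1 in favour of D2 alone and 4 had both, while over all 13933 genes with a tested region 2474 had B6 calls alone and 3316 D2 calls alone. Neighbouring genes share regions, so regions were counted as well: 35 of 76 favoured B6 and 5 favoured D2, with a median of -0.67 log2 units over the 76 against 0.06 over regions near any gene. Summed over the 76 regions, whatever their call, H3K9me3 came to 1975, 1697 and 1644 CPM in B6 lines and 1023, 992 and 916 CPM in D2 lines. Leaving out any of the 6 lines left 32 to 35 B6-higher and 4 to 6 D2-higher regions, and DESeq2 called 31 and 3.

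At Kcnq1ot1, an imprinted non-coding RNA, the levels were 50.7, 42.4 and 32.8 CPM in B6 and 5.76, 5.61 and 3.76 CPM in D2 (chr7:143295040-143297376, -3.02 ± 0.30 log2 units, edgeR adjusted p = 9.29e-11). In Igf2r, the gene of a receptor that clears IGF2, a region that covers a coding exon and overlaps the antisense RNA Airn held 72.9, 51.1 and 63.6 CPM in B6 and 13.2, 10.6 and 6.01 CPM in D2 (chr17:12739645-12743164, -2.65 ± 0.25). Impact, a regulator of translation, held 72.9, 41.3 and 63.6 CPM in B6 and 4.94, 9.98 and 9.02 CPM in D2. The lowest value of 3 B6 lines lay above the highest of 3 D2 lines in 34 of the 35 B6-higher imprinted-gene regions, where 95.1% of all called regions had no overlap. Other members, chosen after their values were seen, ranged from -3.36 at Nnat and Blcap through -2.57 at Peg13, -2.29 at Mest and -2.07 at Peg3 and Usp29 to -1.25 upstream of H19. Grb10 and Rasgrf1 gave no call in 3 regions each, with differences between -0.35 and 0.11 log2 units. The 5 regions higher in D2 lay in Airn, Gnas, Herc3, Rtl1 and Trappc9, away from the B6-higher regions of the same clusters, and their differences were 0.84 to 2.06 log2 units.

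Sequences of 3 of these regions, those with the smallest adjusted p that held the motif and touched no protein-coding exon, show how densely the motif can lie. Each is the stretch of 150 bases with the most copies of TGCCGC or its complement GCGGCA, both in capitals, on the plus strand of GRCm38.
Kcnq1ot1, chr7:143295597-143295746: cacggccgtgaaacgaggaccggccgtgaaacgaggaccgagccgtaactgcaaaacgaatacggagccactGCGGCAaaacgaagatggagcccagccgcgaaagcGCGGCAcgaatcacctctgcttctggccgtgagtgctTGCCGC
Peg13, chr15:72809908-72810057: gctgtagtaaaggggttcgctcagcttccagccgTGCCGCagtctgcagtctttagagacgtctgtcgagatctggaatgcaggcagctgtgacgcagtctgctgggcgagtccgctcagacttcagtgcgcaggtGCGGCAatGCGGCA
H19, chr7:142580175-142580324: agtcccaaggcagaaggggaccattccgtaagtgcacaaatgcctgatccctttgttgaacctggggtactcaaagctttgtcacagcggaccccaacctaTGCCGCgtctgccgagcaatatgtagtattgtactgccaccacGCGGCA
The motif stood in 22 of the 35 B6-higher imprinted-gene regions (62.9%), at 1.54 copies per kb. In regions 1 to 4 kb wide it stood in 18 of 28, against 27.1% of all 15090 tested regions of that width, which held 0.244 copies per kb. The motif contains a CG, and the median CpG ratio of these sets also differed, 0.513 against 0.246. Germline-gene regions higher in D2, also CpG-rich, carried it in 6 of 10 at that width, at 0.492 copies per kb. The other 41 tested regions of the list held 0.567 copies per kb. A copy of these letters is not a bound site.

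Germline genes, which embryonic stem cells keep silent, leaned the other way. Of 25 with a tested region, 16 had calls in favour of D2 alone and 1 in favour of B6 alone. By region, 19 of 38 favoured D2 and 1 favoured B6, with a median of 0.63 log2 units, where 17.3% of all tested regions were higher in D2 and 17.4% in B6. Of the 19, 16 lay within 1 kb of a start. The count fell to 9 with DESeq2 and to 10 without B6 line 4-4, and stood at 13 to 19 without any other line. CpG-rich starts as a class moved in the same direction: of 1288 tested with a CpG ratio of at least 0.6, 314 favoured D2 and 124 favoured B6, with a median of 0.26, and without the germline and imprinted regions the median was 0.25. At Hormad1, which encodes a protein of the meiotic chromosome axis, the levels were 18, 15.2 and 12.3 CPM in B6 and 37.0, 51.8 and 43.6 CPM in D2 (1.55 ± 0.24 log2 units, edgeR adjusted p = 2.16e-06). At Dazl, an RNA-binding protein of germ cells, they were 22.2, 9.79 and 19.5 CPM in B6 and 25.5, 43.7 and 29.3 CPM in D2 (0.95 ± 0.27). Ddx4 (0.97), Sycp3 (0.80), Tex15 (1.27) and Tdrkh (1.09) were also called in favour of D2. The largest difference of the list, 2.57 ± 0.28 log2 units, lay in an intron of Sycp1, a synaptonemal complex gene, where 89% of bases were masked, and the exception was an intron of Tex14 at -1.92 ± 0.25.

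**Figure D3:**
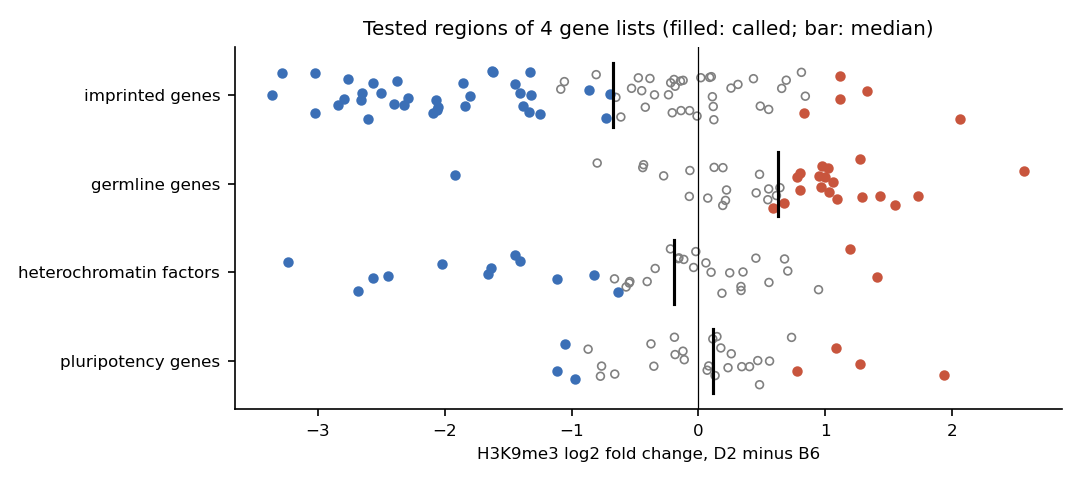
H3K9me3 log2 fold change (D2 minus B6) of each tested region near the genes of 4 lists, filled where called and open where not, with a bar at each list's median. Imprinted-gene regions spread to the left with a median of -0.67 and germline-gene regions to the right with a median of 0.63.

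**Figure D4:**
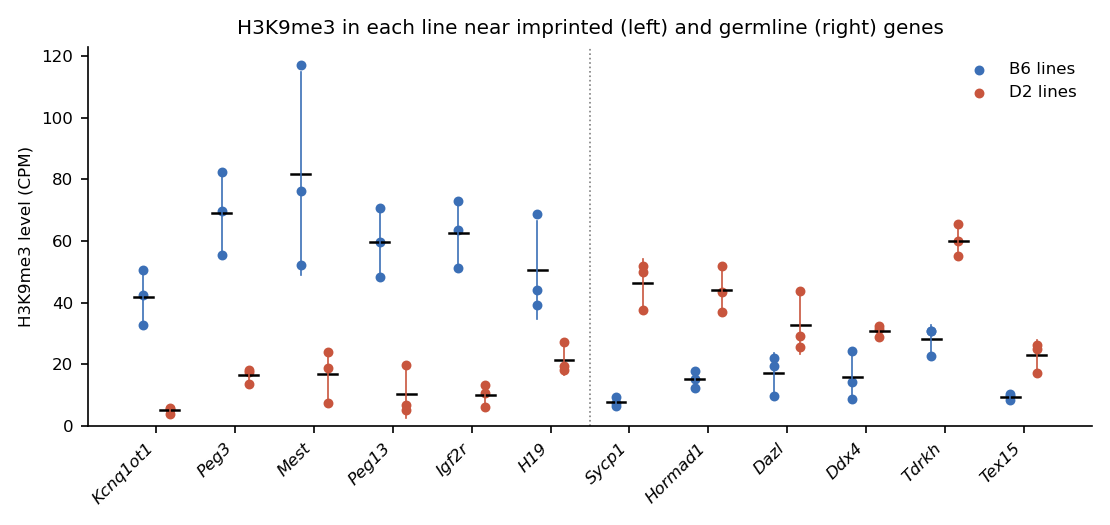
H3K9me3 level in CPM in each of the 3 B6 and 3 D2 lines, with the mean (black bar) and SD (line), at the region with the smallest adjusted p of 6 imprinted and 6 germline genes, chosen after their values were seen. The B6 points lie above the D2 points at the 6 imprinted genes and below them at the 6 germline genes.

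Genes of the heterochromatin machinery itself carried 12 B6-higher and 2 D2-higher regions among 38 tested, a called share of 36.8%, close to the overall 34.7%. In introns of Smarcad1, a chromatin remodeller that binds TRIM28, 3 neighbouring regions were lower in D2, and the strongest held 22.2, 19.6 and 28.7 CPM in B6 and 3.29, 1.87 and 2.25 CPM in D2 (-3.23 ± 0.40 log2 units). Resf1 (-2.02), Rif1 (-2.45), Zfp809 (-1.45) and Smchd1 (-1.64) also had B6-higher regions. The D2-higher ones lay at Trim28 (1.4 ± 0.25) and Daxx (1.19 ± 0.39), and the number in favour of D2 was 1 without D2 line 5-5 and with DESeq2. Pluripotency genes had 4 D2-higher and 3 B6-higher regions among 31, a called share of 22.6%, below the overall 34.7%, and DESeq2 called 1 in each direction. Dppa3, which protects methylation in the early embryo, had 6.34, 4.35 and 2.05 CPM in B6 and 20.6, 15.0 and 14.3 CPM in D2 over its start and coding sequence (1.93 ± 0.41). The B6-higher regions lay in Esrrb, a nuclear receptor gene that also held 1 D2-higher region, and their number fell to 1 without B6 line 5-1 or without D2 line 203. Without B6 line 5-1 the D2-higher number fell to 2.

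Zinc finger genes had 215 B6-higher and 83 D2-higher regions among 541 tested (55.1% called, against 34.7% of all tested regions, 17.4% higher in B6 and 17.3% higher in D2). Of these, 112 B6-higher regions lay in the chromosome 4 cluster, where 140 were tested, and 12 D2-higher regions among 16 tested in the chromosome 13 cluster. Outside these clusters and that of chromosome 2, 384 regions gave 101 calls in favour of B6 and 69 in favour of D2, with a median of -0.10 log2 units. Zfp979, in the chromosome 4 cluster, held 207, 213 and 245 CPM in B6 and 31.3, 38.7 and 24.8 CPM in D2 (-2.79 ± 0.17). Skint genes had 15 B6-higher regions of 19 and none higher in D2 (0 by DESeq2 as well), with a median of -1.45.

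The remaining gene families are read against the 34.7% of all tested regions that were called, 17.3% higher in D2 and 17.4% higher in B6. Antigen receptor segments, the gene pieces joined in lymphocytes, had 31 D2-higher and 6 B6-higher regions of 72, among them Trav18 with 10.6, 14.1 and 6.15 CPM in B6 and 51.8, 42.4 and 54.1 CPM in D2. Histocompatibility genes had 10 D2-higher and 4 B6-higher regions of 21. The D2 count fell to 4 without B6 line 5-1 and to 6 without D2 line 2-9. H2-T23, a nonclassical class I gene, was among those higher in B6, with 65.5, 41.3 and 41.0 CPM against 8.23, 3.12 and 3.76 CPM in D2. Natural killer receptor genes had 5 D2-higher regions of 8, which became 3 without B6 line 4-1, B6 line 4-4 or D2 line 2-9. UDP glucuronosyltransferases, which conjugate drugs and bilirubin, had 7 B6-higher regions of 13. A region over an untranslated part of Ugt1a7c, within 2 kb of other Ugt1a genes, held 245, 410 and 354 CPM in B6 and 88.8, 88.6 and 70.7 CPM in D2. Olfactory receptors had 17 D2-higher and 41 B6-higher regions of 172, vomeronasal receptors 30 and 32 of 164 (33.7% and 37.8% called, near the overall share), serpins 5 and 11 of 31, Nlrp genes 2 and 10 of 23 and cytochromes P450 11 and 8 of 74. Histones gave 5 calls in 14 regions, the Prame family 5 in 10, major urinary proteins 2 in 5 and Speer genes 1 in 7. The calls of 4 other families turned on single lines. Clustered protocadherins gave 5 in 51, but 2 without B6 line 5-1 and 3 without D2 line 5-5 or 203. Guanylate binding proteins gave 2 in 6, but 0 without B6 line 5-1 or D2 line 5-5 and 1 without B6 line 4-1, B6 line 4-4 or D2 line 203. Schlafens gave 2 in 5, but 1 without B6 line 5-1, and keratins 1 in 4, but 0 without B6 line 4-4 or 5-1 or D2 line 2-9 or 203. DESeq2, which called fewer regions in all, moved several of these counts by more than 1.5 times. In favour of D2 it called 4 histocompatibility, 2 natural killer receptor, 10 olfactory receptor, 3 serpin, 7 P450, 0 Nlrp, 1 Prame and 2 histone regions. In favour of B6 it called 17 vomeronasal receptor, 7 serpin, 5 P450 and 0 histone regions. It called 1 protocadherin region and 0 of the guanylate binding protein and keratin regions. Obox genes gave 0 of 2 with edgeR and with DESeq2, and 2 in favour of B6 without B6 line 4-1.

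H3K27ac is placed at promoters and enhancers in use, and it was compared at H3K9me3 regions that overlap one of its own regions. It differed between the strains at 49.3% of its 96291 tested regions (24.3% higher in D2 and 25.0% higher in B6, edgeR), and by at least 4-fold at 1.79%. At 4754 D2-higher H3K9me3 regions with such an overlap, H3K27ac was higher in B6 at 2457 and higher in D2 at 995, with a median of -0.33 log2 units. At 4690 B6-higher regions it was higher in D2 at 2077 and higher in B6 at 1345, with a median of 0.15, and at 14202 uncalled regions the numbers were 3982 and 4338. Near gene starts, 171 of 283 B6-higher regions had more H3K27ac in D2 and 49 less. The 533 D2-higher start regions had 96 and 161, and the 1542 uncalled ones 616 and 148. The gene lists differed in this. At imprinted genes H3K27ac was higher in D2 at 23 and lower at 4 of 30 B6-higher regions, but over all 51 imprinted-gene regions compared, whatever their call, the numbers were 33 and 7. At Skint genes H3K27ac went with H3K9me3, lower in D2 at each of the 5 B6-higher regions that could be compared. In the Skint4 region named above, every D2 library of H3K27ac held 3 counts or fewer. Zinc finger genes had H3K27ac higher in B6 at 95 and higher in D2 at 35 of 157 B6-higher regions, with a median of -0.31 log2 units. At their D2-higher regions it was higher in D2 at 17 and in B6 at 25 of 62, and over all 390 compared at 119 and 162. Vomeronasal receptors had H3K27ac higher in B6 at 14 and in D2 at 1 of 20 B6-higher regions. At their 24 D2-higher ones it was higher in D2 at 19 and in B6 at 5. Of all 30 D2-higher regions of this family, 22 lay on chromosome 13. Of its 32 B6-higher ones, 12 lay on chromosome 7 and 10 on chromosome 4. The H3K27ac counts of this family were not split by cluster. One H3K27ac region can be linked to several neighbouring H3K9me3 regions, so these are counts of H3K9me3 regions and not of distinct H3K27ac regions. Whether the same alleles or cells carry both marks was not tested.

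**Figure D5:**
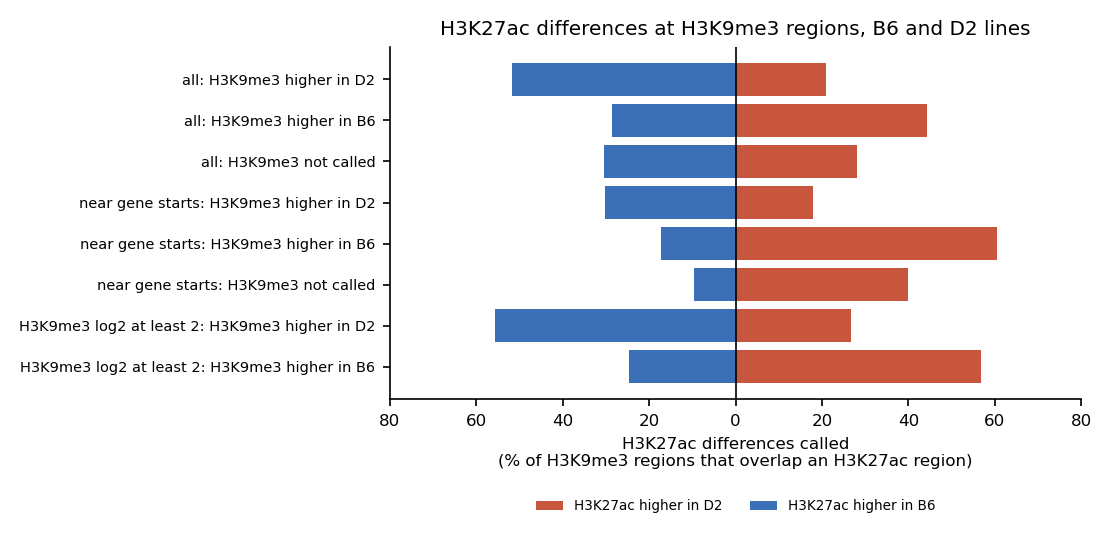
Percentage of H3K9me3 regions overlapping an H3K27ac region at which H3K27ac was called higher in D2 (to the right) or higher in B6 (to the left), by H3K9me3 call, for all tested regions, for those near gene starts and for calls of at least 2 log2 units. At D2-higher H3K9me3 regions the left bars are longer, and at B6-higher regions the right bars are.

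The repeated libraries are technical replicates of B6 line 5-1 and D2 line 5-5, which are among the 6 lines above, so they are not independent of them and compare those lines alone. They were fitted together with the repeated libraries of the lines with an exchanged segment to share 1 estimate of the spread. There 9853 of 86874 regions were called (11.3%; 4.58% higher in D2, 6.76% higher in B6 and 3.09% by at least 4-fold). Of 6909 D2-higher regions that passed the filter here, 2055 were called higher in D2 and 21 higher in B6. Of 7258 B6-higher regions, 3515 were called higher in B6 and 12 higher in D2. Of 26794 regions without a call in the separate lines, 443 were called higher in D2 and 1675 higher in B6, with a median of -0.20 log2 units. Gene starts in these lines leaned to D2, with 483 calls against 195 (71.2%, Wilson interval 67.7 to 74.5%) where all calls gave 40.4%, and coding exons gave 68.6%. Chromosome 13 gave 59.5% and chromosome 4 gave 25.3%, while chromosome 12 gave 63.2% in these lines against 50.4% in the separate lines. Of the 34 B6-higher imprinted-gene regions tested, 19 were called higher in B6 and 0 higher in D2, with a median of -1.26 log2 units. At Kcnq1ot1 the difference was -1.88 log2 units (edgeR adjusted p = 1.52e-06). Of the 19 D2-higher germline-gene regions, 4 were called higher in D2 and 0 in B6, with a median of 0.28, and Hormad1 gave 0.38 (adjusted p = 0.394).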

How the data were processed

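The values are counts of reads per region, as deposited: the authors' tables give 1 column per library, with duplicates removed per the file headers. The submitters' processing notes name Trimmomatic 0.39, HISAT2 2.2.1, MACS 1.4.2, bedtools 2.9.2 and edgeR, and the mm10 build, with no role or order, and how the list of regions was made is not given in the sources used here. That build is the C57BL/6J reference, so reads of both strains were matched to B6 sequence, and the effect of this on the counts was not tested. Reads were 75 bases long per the labels' protocols. The H3K9me3 table of separate lines had 1 column and that of repeated libraries 2 columns that match no sample here, and they were not used.

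Libraries were grouped by the strain and line in their labels. Regions passing the default filterByExpr of edgeR 4.0.16 in R 4.3.3 (minimum count 10, minimum total 15) were TMM-scaled and tested with the quasi-likelihood F-test, with Benjamini-Hochberg adjustment over all of them. Positive log2 differences mean higher in D2, the SE was taken from the F statistic, and CPM uses TMM-scaled totals. H3K27ac and the repeated libraries were tested in the same way. The repeated libraries share the H3K9me3 region list. Each H3K9me3 region was linked to the H3K27ac region with the largest overlap, of at least 1 bp. On simulated counts for the 44797 tested regions, 25% of 100 regions changed 2-fold (1 log2 unit) and 96% of 100 changed 4-fold (2 log2 units) were called, with 3 unchanged regions called. No other region was changed in the simulation, where 34.7% were called in the data, so its adjusted p cut was the stricter one. These recovery shares therefore do not carry over to the comparison, and how often it missed smaller differences was not tested.

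Regions were placed on GENCODE M21 and GRCm38, taking starts as counted from 0, in the order coding exon, untranslated region, non-coding exon, intron, intergenic. A gene list took regions on a member or within 2 kb. Named regions were those with the smallest adjusted p in each direction (6 among all, 4 at gene starts, 3 over coding exons), the 3 widest and up to 3 per gene list, no 2 of an item within 1 Mb, and 5 windows of 1 Mb per direction, which may adjoin. The members and lists were chosen with earlier results of these data known. Lines left out in turn, other scalings, filters, DESeq2 1.42.0, a replicate block and thinning were tried as alternatives.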

Additional observations from a re-analysis of the deposited data

How the results depend on the processing

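The number of H3K9me3 regions called was 9620 with DESeq2 (4605 higher in D2 and 5015 in B6) and 6650 among regions with a mean of at least 20 counts (3496 and 3154), against 15525, the latter because fewer regions were tested. It was 12920 to 14373 with a line left out, 11564 with libraries thinned to the shallowest and 12090 with scaling on regions under the filter, an alternative chosen after seeing the data. The share of gene-start calls in favour of D2 was 75.1% with library totals, 64.3% with DESeq2 and 70.9% at a mean of at least 20 counts, and 64.8 to 69.8% with a line left out. Over the alternatives, chromosome 13 ranged from 59.4 to 68.9% and chromosome 4 from 33.2 to 48.0%, where all calls ranged from 47.9 to 61.5%. The repeated libraries gave 3474 calls with DESeq2, 3861 at a mean of at least 20 counts and 5119 to 8058 with a library left out (6195 without the first D2 library and 5119 without the second). The cause was not tested. DESeq2 called 9 germline-gene regions in favour of D2 where edgeR called 19. Of 1096 alternative values of the 75 named regions, 1057 kept direction and call, 39 kept direction but lost the call, and 0 reversed.

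The replicate number as a block gave 14508 calls. Lines with the same number did not deviate together (correlations of -0.055, -0.007 and -0.050), so they share only a number. Each strain has 3 lines, of low depth, so p-values describe these lines.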
